A study of Mus musculus with 8 samples.

Results

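Lysozyme 2 (Lyz2) and 8 cathepsins (Ctsb, Ctsc, Ctsd, Ctsh, Ctsk, Ctsl, Ctss and Ctsz) were followed across the leukocytes of arthritic mouse paws. These 9 genes were taken by name from the 28434 genes listed in the deposited single cell tables. The rule that names them uses no measured value, but it was set with earlier results of these data known. All 9 were present in both tables. They were described by cell class, and the levels in each class were then compared between the study's 2 groups.

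Lysozyme 2 encodes lysozyme M, an enzyme that cleaves the peptidoglycan of bacterial cell walls and is made by monocytes, macrophages and granulocytes. Cathepsins are proteases that work mainly in the acidic lumen of endosomes and lysosomes, where they degrade engulfed material, activate other enzymes and trim the invariant chain that occupies MHC class II molecules before peptide loading. Most of the cathepsins followed here are cysteine proteases of the papain family, whereas Ctsd encodes an aspartic protease. In inflamed joints they are also of interest because some of them, cathepsin K above all, degrade cartilage and bone matrix.

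The cells came from C57BL/6 mice of 10 weeks that were injected with K/BxN serum, an arthritogenic serum, on day 0 and again on days 2 and 9. A transfer of bone marrow monocytes from arthritic mice into the vein followed on day 12. The monocytes had been incubated for 90 min with vehicle (the Mono group) or with 1 nM MCTR3, the maresin conjugate in tissue regeneration 3 (the Mono+MCTR3 group). Paws were digested on day 22 and CD45+ cells were sorted and sequenced with 10x 3′ chemistry, 1 suspension per mouse and 4 mice per group. Every mouse of both groups thus carried the arthritis and a monocyte transfer, there was no group without transfer, and transferred cells could not be told apart from the host's own cells.

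Of 10538 barcodes, 10256 passed the cell filter (5241 Mono and 5015 Mono+MCTR3), with 1731045 to 6009009 unique molecular identifiers (UMIs, counted molecules) per mouse and a median of 1685.5 to 2428 UMIs per cell. A mouse is named here by the number at the end of its cell barcodes. Between 0 and 8 barcodes were shared by any 2 mice of a group. Cells were clustered without the 9 genes and the clusters were named from marker lists. Neutrophil-like cells made up 6954 cells in 7 clusters, B cell-like cells 1407, T cell-like cells 763 and NK cell-like cells 633. The 351 mononuclear phagocytes comprised 170 classical monocyte-like, 72 macrophage-like, 62 dendritic cell-like and 47 nonclassical monocyte-like cells. A cluster of 64 cells with Siglech, a gene of plasmacytoid dendritic cells, was led mainly by muscle genes and is called the Siglech-high cluster.

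The genes lie on 7 chromosomes of the GRCm38 build (GENCODE vM21 positions). Lyz2 spans chr10:117277331-117282321 on the minus strand, next to its near-identical paralog Lyz1 at chr10:117287797-117292868. Reads that fit both genes may therefore have been left out or miscounted in the authors' counting. Ctsk (chr3:95499256-95509362) and Ctss (chr3:95526786-95556403) are neighbours on the plus strand. Ctsb spans chr14:63122462-63145923, Ctsc chr7:88278085-88310888, Ctsd chr7:142375911-142388038, Ctsh chr9:90054152-90076089, Ctsl chr13:64359337-64370890 and Ctsz chr2:174427493-174439039. All 9 are protein coding.

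RefSeq promoters (GRCm38.p6, 250 bases before to 50 bases after the gene start) were matched for 7 of the 9 genes, all but Ctsb and Ctsh. On both strands, the letters CACGTG, an E-box of the kind bound by TFEB, a transcription factor of lysosomal genes, were found in 2 of the 7 (Ctsd and Ctsl) and in 7.15% of 32851 promoters of the same length. The letters AGGAAGT, which hold the core recognised by ETS factors such as the myeloid factor PU.1, were found in 3 of the 7 (Lyz2, Ctsc and Ctss) and in 9.35% of all promoters. The 3 stretches shown lie upstream of the annotated gene and were chosen because they belong to the gene that was highest in activated neutrophils, the gene that was highest in monocytes and the activator of granule proteases. Capitals mark the match, and in the Ctsc and Lyz2 stretches AGGAAGT reads as ACTTCCT because it lies on the opposite strand. They run 5′ to 3′ on the strand of the gene, chr7:142388040-142388077 (minus) for Ctsd, chr7:88277907-88277967 (plus) for Ctsc and chr10:117282339-117282399 (minus) for Lyz2.
Ctsd: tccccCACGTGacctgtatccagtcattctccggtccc
Ctsc: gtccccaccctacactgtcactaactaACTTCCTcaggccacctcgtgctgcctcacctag
Lyz2: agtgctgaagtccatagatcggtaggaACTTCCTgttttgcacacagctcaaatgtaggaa

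Levels are given in CPM, the UMIs of a gene scaled by the total UMIs of its class in a mouse, as mean ± SD over mice with at least 5 cells of the class. A level is compared between classes for the same gene only, and the mice of both groups are pooled unless a group is named. Nonclassical monocyte-like cells reached 5 cells in Mono mice only. All their levels, and their comparisons with other classes within mice, therefore come from that group. The means of other classes printed beside theirs pool both groups, so those means come from unlike sets of mice. Levels by class are a description and carry no test, since all classes come from the same mice. Where classes are compared within mice, 10 CPM were added to both levels before the ratio was taken.

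The 9 genes did not share 1 pattern of cell classes. By mean level, monocytes and macrophages led for Lyz2, Ctsb, Ctsc, Ctss and Ctsz, and activated and mature neutrophils for Ctsd. Dendritic cell-like cells and the Siglech-high cluster led for Ctsh, and the Siglech-high cluster and macrophages for Ctsl. Ctsk was nearly limited to fibroblasts and macrophages. Some leads overlapped the next class over mice. For Ctsd, mature neutrophil-like cells (1298 CPM) overlapped macrophage-like cells (1089 CPM). For Ctsh, dendritic cell-like cells (855 CPM) overlapped the Siglech-high cluster (825 CPM), which overlapped classical monocyte-like cells (764 CPM). For Ctsc and Ctsz, dendritic cell-like cells overlapped the class ranked just above them. The 3 highest of the 17 classes with at least 3 mice were compared for each of the 36 pairs of genes. Of these pairs, 7 had no class in common, 15 had 1 and 13 had 2. Only Ctsc and Ctsz shared all 3 (classical monocyte-, macrophage- and dendritic cell-like). All 7 pairs without a common class were pairs with Ctsd. Macrophage-like cells were among the 3 highest classes of every gene but Ctsd and Ctsh, and held rank 4 for both.

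**Figure D1:**
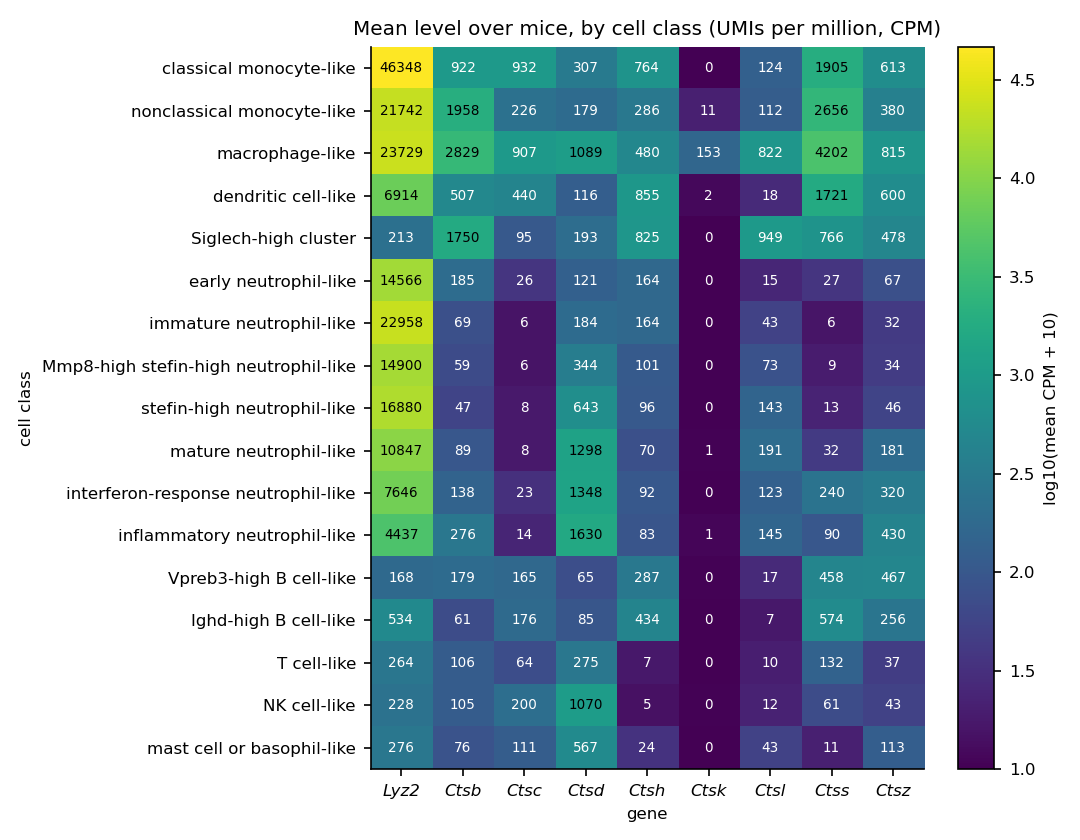
Mean level of each gene (columns, CPM, numbers in the cells) in each cell class (rows), averaged over mice with at least 5 cells; colour gives log10 of the mean plus 10 CPM. Lyz2 was highest in classical monocyte-like cells (46348 CPM), Ctss and Ctsb in macrophage-like cells (4202 and 2829 CPM) and Ctsd in inflammatory neutrophil-like cells (1630 CPM).

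Lyz2 had 294888 UMIs in all. Neutrophils, being numerous, held 76.5% of them and mononuclear phagocytes 22.6%. By level the order differed, with 46348 ± 5601 CPM in classical monocyte-like cells (n = 7 mice), 23729 ± 11243 in macrophage-like cells (n = 5), 22958 ± 2480 in immature neutrophil-like cells (n = 8) and 21742 ± 2302 in nonclassical monocyte-like cells (n = 4). The range over mice in classical monocyte-like cells lay above that of macrophage-like cells, while the next 3 classes overlapped with both groups pooled. The macrophage-like mean joins groups that were far apart, as given by mouse further down. Macrophage-like cells of the Mono mice lay above the immature neutrophil-like and nonclassical monocyte-like cells. Those of the Mono+MCTR3 mice lay below both. Dendritic cell-like cells had 6914 ± 5220 CPM of Lyz2 (n = 5). Classical monocyte-like cells exceeded dendritic cell-like cells in 5 of 5 mice, by a median of 6.23-fold (4.07 to 35.2).

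The papain-type enzymes Ctsb and Ctss shared a preference for macrophage-like cells. Ctss, which degrades the invariant chain in antigen presenting cells, stood at 4202 ± 482 CPM in macrophage-like (n = 5), 2656 ± 426 in nonclassical monocyte-like (n = 4), 1905 ± 320 in classical monocyte-like (n = 7) and 1721 ± 401 in dendritic cell-like cells (n = 5). In all 3 mice with both classes, macrophage-like exceeded nonclassical monocyte-like cells, by a median of 1.79-fold for Ctss and 1.26-fold for Ctsb. Ctsb, an endopeptidase and carboxydipeptidase, stood at 2829 ± 394 CPM in macrophage-like, 1958 ± 267 in nonclassical monocyte-like and 922 ± 166 in classical monocyte-like cells. Nonclassical monocyte-like cells exceeded classical monocyte-like cells for Ctsb in 4 of 4 mice (2.0-fold).

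Ctsc had the opposite order between the monocyte types. It encodes dipeptidyl peptidase I, the activator of the serine proteases of neutrophil, mast cell and cytotoxic granules. Its level was 932 ± 176 CPM in classical monocyte-like cells and 226 ± 52.3 CPM in nonclassical monocyte-like cells, a median difference of 4.25-fold (2.93 to 6.07) that held in 4 of 4 mice. Ctsh, an aminopeptidase, was likewise higher in the classical type, at 764 ± 45.8 against 286 ± 145 CPM (4 of 4 mice, 2.45-fold). In the 7 neutrophil clusters the mean of Ctsc lay between 5.58 and 26.4 CPM, and neutrophils held 4.80% of its 2855 UMIs.

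Macrophage-like cells differed from classical monocyte-like cells in the same direction in 5 of 5 mice for Ctsb (2.86-fold), Ctsd (3.90-fold), Ctsl (3.91-fold), Ctss (1.98-fold) and Ctsz (1.32-fold), all higher in macrophage-like cells, and for Lyz2 (1.76-fold) and Ctsh, higher in classical monocyte-like cells. Mice differed widely in macrophage-like Ctsd, from 449 to 1776 CPM, and in Ctsl, from 307 to 2090 CPM.

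**Figure D2:**
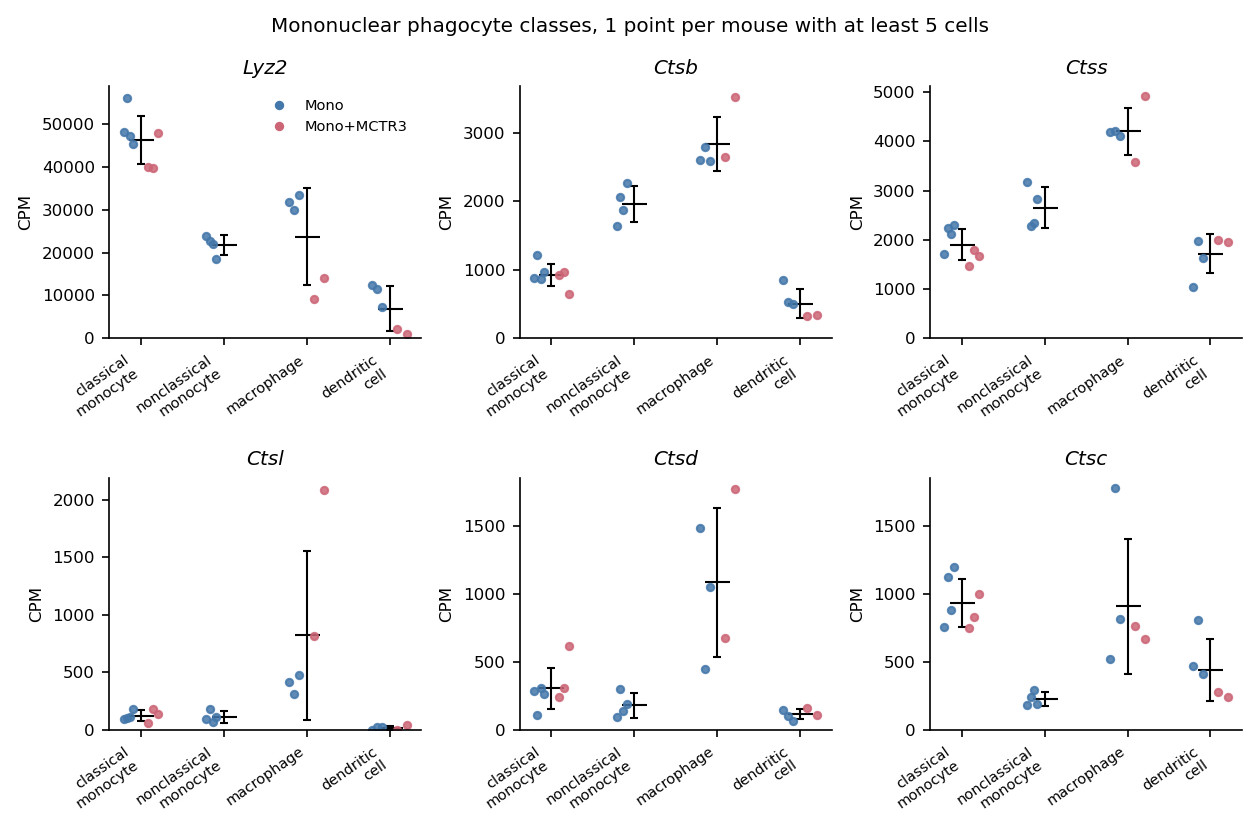
Level (CPM, y axis) of 6 genes in the 4 mononuclear phagocyte classes, 1 point per mouse with at least 5 cells of the class (blue Mono, red Mono+MCTR3), with mean and SD over mice as bars. Ctsb and Ctss peaked in macrophage-like cells, where the lowest mouse had 2591 and 3579 CPM, and Lyz2 in classical monocyte-like cells, where the lowest mouse had 39651 CPM.

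Within neutrophils the immature cluster had the most Lyz2 and the inflammatory cluster the least, and the inflammatory cluster had the most Ctsd. Lyz2 was 22958 ± 2480 CPM in the immature cluster (marked by Ltf, Camp and Ngp, genes of secondary granules), 16880 ± 1186 in the stefin-high cluster, 14900 ± 1858 in the Mmp8-high stefin-high cluster, 10847 ± 1501 in the mature cluster and 4437 ± 993 in the inflammatory cluster (marked by Tnf, Ccrl2 and Cxcl2). The immature cluster exceeded the inflammatory cluster in 8 of 8 mice, by a median of 5.0-fold (4.24 to 7.44), and the ranges, 19135 to 28114 and 3149 to 6211 CPM, were far apart. The steps from immature to stefin-high (1.33-fold), from Mmp8-high to mature (1.36-fold) and from mature to inflammatory (2.52-fold) held in 8 of 8 mice, while stefin-high exceeded Mmp8-high in 6 of 8 mice (1.16-fold). The early cluster, at 14566 ± 1682 CPM, was below the immature cluster in 5 of 5 mice.

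Ctsd had 184 ± 34.7 CPM in the immature cluster (124 to 243 CPM over 8 mice) and 1630 ± 418 CPM in the inflammatory cluster (1119 to 2492 CPM), so that the ranges were far apart. It was higher in the inflammatory cluster in 8 of 8 mice, by a median of 7.96-fold (4.46 to 13.5). The order was not the reverse of that of Lyz2, since the stefin-high cluster was above the Mmp8-high cluster in the mean of both genes. For Ctsd these steps held in 8 of 8 mice, with the Mmp8-high stefin-high over the immature cluster by 1.70-fold, the stefin-high over the Mmp8-high cluster by 1.78-fold, the mature over the stefin-high cluster by 2.0-fold and the inflammatory over the mature cluster by 1.25-fold. Of 16570 Ctsd UMIs, neutrophils held 76.3%. The order of the clusters is an order of their marker genes, and no time course was measured.

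Ctsz, a carboxypeptidase, followed Ctsd with a median of 10.03-fold between the inflammatory and immature clusters (8 of 8 mice). Its levels were 430 ± 133 and 32.1 ± 5.06 CPM. Ctsb (2.44-fold) and Ctss (6.78-fold) were also higher in the inflammatory than in the immature cluster in 8 of 8 mice, but Ctss remained low, at 89.9 CPM against 6.07 CPM on average, and reached 240 CPM in the interferon-response cluster, which exceeded the mature cluster in 8 of 8 mice (4.44-fold). Ctsh took the direction of Lyz2 between the immature and mature clusters, at 164 ± 20.9 and 69.8 ± 8.97 CPM (8 of 8 mice, 2.06-fold). Unlike Lyz2, its mean was not lower again in the inflammatory (82.9 CPM) and interferon-response (92.5 CPM) clusters. The Ctsb level of the inflammatory cluster was 405 and 759 CPM in Mono+MCTR3 mice 1 and 2 and 85.1 to 270 CPM in the other 6 mice.

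**Figure D3:**
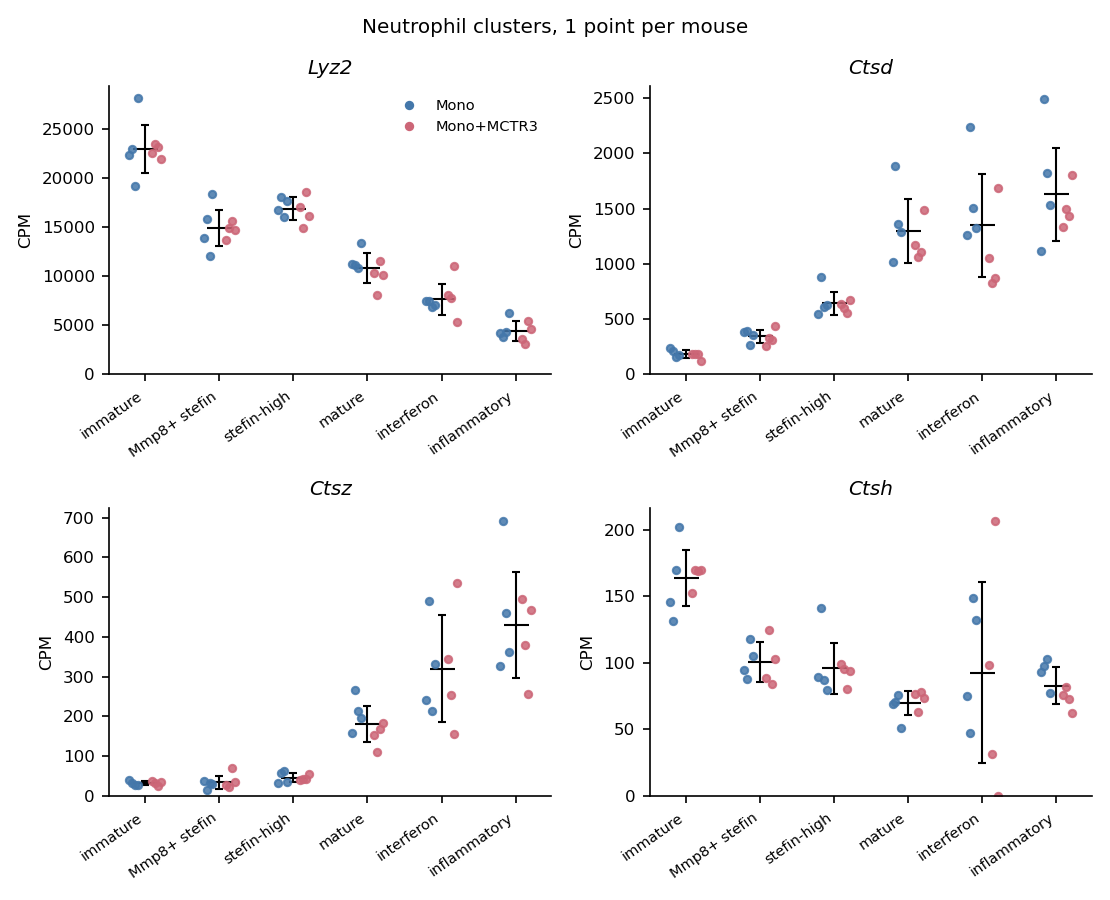
Level (CPM, y axis) of Lyz2, Ctsd, Ctsz and Ctsh in 6 neutrophil clusters, 1 point per mouse (blue Mono, red Mono+MCTR3), with mean and SD over the 8 mice as bars. Lyz2 averaged 22958 CPM in the immature and 4437 CPM in the inflammatory cluster, while Ctsd averaged 184 and 1630 CPM and Ctsz 32.1 and 430 CPM.

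In lymphoid cells the cathepsins were divided by lineage. B cell-like cells had Ctss, Ctsz and Ctsh, and hardly any Ctsl. Ctsh was 434 ± 99.2 CPM in the Ighd-high B cluster and 287 ± 37.5 CPM in the Vpreb3-high B cluster, against 7.43 CPM in T cell-like and 4.72 CPM in NK cell-like cells, and the Ighd-high B cluster exceeded T cell-like cells in 8 of 8 mice by a median of 28.0-fold. The 2 B clusters differed from each other in 8 of 8 mice for 3 genes. Ctsh was higher in the Ighd-high cluster (1.5-fold), and Ctsb (2.52-fold) and Ctsz (1.74-fold) were higher in the Vpreb3-high cluster.

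NK cell-like cells stood out among lymphoid cells for Ctsd. Ctsd was 1070 ± 130 CPM in NK cell-like cells, 275 CPM in T cell-like cells and 65.5 CPM in the Vpreb3-high B cluster. The difference from T cell-like cells held in 8 of 8 mice (3.66-fold), as did that from the Vpreb3-high B cluster (14.2-fold). Ctsc was 200 ± 34.4 CPM in NK cell-like and 63.7 CPM in T cell-like cells (8 of 8 mice, 2.84-fold). The B clusters had means of Ctsc near that of NK cell-like cells, at 176 CPM (Ighd-high) and 165 CPM (Vpreb3-high). The ranges over mice of NK cell-like cells and the Ighd-high cluster overlapped.

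Free RNA from broken cells enters droplets, so each level in a class that may lack the gene was set beside S100a8, an abundant neutrophil transcript that lymphoid cells do not make. After each cell was thinned to 500 UMIs (no cell was lost), S100a8 had a UMI in 55.4% of B cell-like, 51.9% of T cell-like and 55.0% of NK cell-like cells. Lyz2 had one in 9.24%, 9.17% and 9.79% of the same cells, against 86.7% of neutrophils and 89.5% of mononuclear phagocytes. Unthinned, the Lyz2 shares were 34.4%, 42.1%, 33.8%, 93.8% and 98.3%, at median depths of 2249, 3569, 2473, 1720 and 6349 UMIs per cell.

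The ratio of Lyz2 to S100a8 UMIs in lymphoid cells was near that of the neutrophils. Its median over 8 mice was 0.0829 in neutrophils (0.0794 to 0.104), 0.104 in B cell-like (0.0389 to 0.123), 0.0980 in T cell-like (0.0506 to 0.148) and 0.0800 in NK cell-like cells (0.0365 to 0.103), and the ranges overlapped. In classical monocyte-like cells it was 27.2. Lyz2 in lymphoid cells was therefore read as background and its levels there, 168 to 534 CPM, were not taken as expression.

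Some cathepsins behaved otherwise in the same cells. Ctsd had 0.402 UMIs per S100a8 UMI in NK cell-like cells against 0.00416 in neutrophils, with no overlap between mice. For Ctsh the medians were 0.106 in B cell-like cells and 0.000623 in neutrophils, and for Ctss 0.159 and 0.000171. Free RNA of neutrophils would carry these genes at the ratio of the neutrophils. Ctsd in NK cell-like cells and Ctsh and Ctss in B cell-like cells were therefore above that background. This did not hold for every cathepsin. Ctsh in NK cell-like cells (0 to 0.00446) and Ctsl in B cell-like cells (0.00110 to 0.0167) overlapped the neutrophils over mice. So did Ctsl in NK cell-like cells and Ctsk in both. Free RNA of other cell types was not measured this way.

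**Figure D4:**
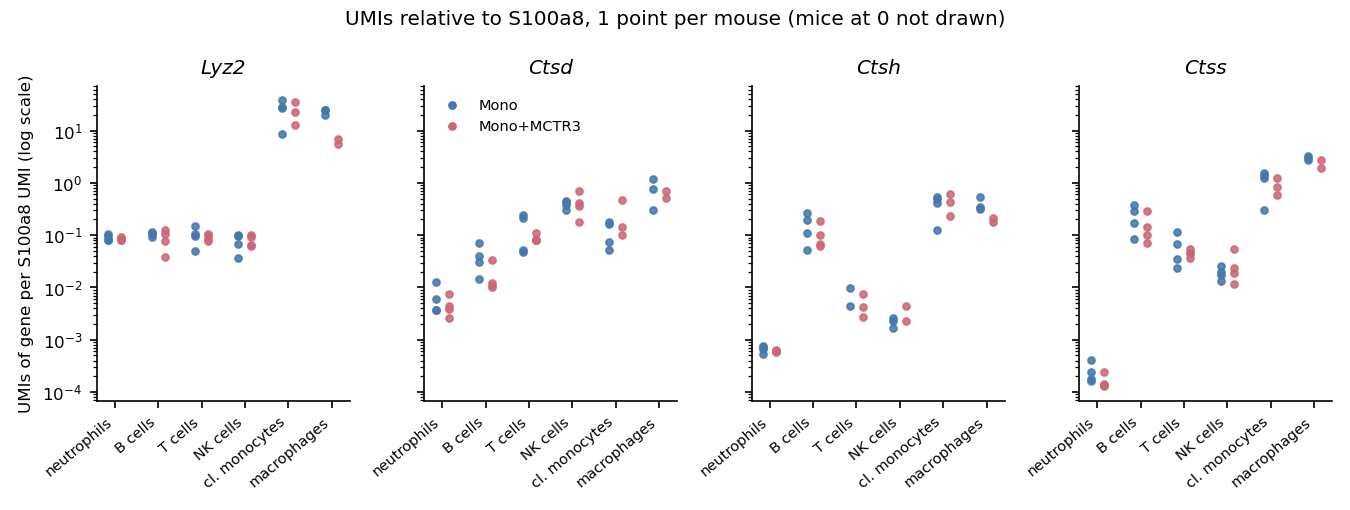
UMIs of Lyz2, Ctsd, Ctsh and Ctss per UMI of S100a8 (log scale, y axis) in 6 classes, 1 point per mouse (blue Mono, red Mono+MCTR3), mice at 0 not drawn. Lyz2 lay near 0.1 in neutrophils and in lymphoid cells alike, whereas Ctsd in NK cells (median 0.402) and Ctsh and Ctss in B cells (0.106 and 0.159) lay far above the neutrophils.

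Ctsk, the matrix-degrading enzyme of osteoclasts, had 183 UMIs in all. Of these, 134 (73.2%) were in the 20 fibroblast-like cells, 18 of which came from Mono mice, and 36 in macrophage-like cells, at 346, 0 and 12 CPM in Mono mice 2, 3 and 4 and 282 and 124 CPM in Mono+MCTR3 mice 1 and 2. None was found in classical monocyte-like cells, where a count of 0 allows up to 3.04 CPM (exact Poisson 95% bound, counting error only). In mononuclear phagocytes the 8 osteoclast markers summed to 19.5 to 89.2 CPM per mouse, with Calcr and Oscar at 0 in both groups, and all 9 fibroblast markers were at 0 in the Mono+MCTR3 mice. In the Mono mice the fibroblast markers summed to 0 to 62.1 CPM, highest in mouse 2, the Mono mouse with the most Ctsk, and their part in its Ctsk was not tested.

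Ctsl was 949 ± 323 CPM in the Siglech-high cluster (n = 6) and 822 ± 734 CPM in macrophage-like cells (n = 5), which overlapped. It was 17.5 CPM in dendritic cell-like cells, lower than in the Siglech-high cluster in 4 of 4 mice. Mature neutrophils had 191 ± 65.1 CPM, and neutrophils together held 61.1% of its 3024 UMIs. The Siglech-high cluster was also high in Ctsb (1750 ± 586 CPM) and Ctsh (825 ± 307 CPM), and low in Lyz2 (213 CPM).

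Genes with the most similar pattern were found over 17 classes among 3037 genes by Pearson correlation of mean log2(CPM + 10), a description over classes that share libraries and differ in depth. Lyz2 was closest to Clec4a2 (r = 0.92), App and Cyba, Ctsc to Snx1 (0.96), Crip1 and Prdx1, Ctsz to Erp29 (0.96), Hmox2 and Irf5, and Ctss to Clta (0.92), Klf4 and Ctsa. Ctsk was closest to Cav1 (0.98), Folr2 and Ccl24. Ctsb was closest to Tm2d2 (0.89), Capza2 and Cox6b1, Ctsd to Por (0.87), Fxyd5 and Gpx4, Ctsh to Ly86 (0.82), BC028528 and Unc93b1, and Ctsl to Mpeg1 (0.75), Khk and Irf2bp2. Among the 9 genes themselves the highest value was between Ctss and Ctsz (0.84) and the lowest between Ctsd and Ctsh (-0.51).

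The groups were then compared to ask whether paw leukocytes differed in these genes when the transferred monocytes had met MCTR3. For each mouse the UMIs of a class were added up, and these sums were tested with edgeR's quasi-likelihood test, with Benjamini-Hochberg adjustment over all genes of the class. Changes are log2 fold changes of Mono+MCTR3 over Mono ± SE. In mononuclear phagocytes (32, 91, 8 and 6 cells in the 4 Mono+MCTR3 mice and 44, 33, 55 and 82 in the Mono mice) 0 of 2924 genes (0%) passed an adjusted p of 0.05. The count was 175 at an unadjusted p under 0.05, 6 with DESeq2 and 12 with edgeR's likelihood ratio test. None of the 8 members tested was called by any of the 3 tests after adjustment, and Lyz2, Ctsl and Ctsz were among the 175. Ctsk was too low to be tested.

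Lyz2 in mononuclear phagocytes was 41556, 37504, 35758 and 27928 CPM in Mono mice 1 to 4 and 26708, 24432, 39810 and 21933 CPM in Mono+MCTR3 mice 1 to 4. The Mono+MCTR3 mice 1, 2 and 4 lay below all Mono mice, and mouse 3, with 8 cells, lay among the highest. The change was -0.39 ± 0.18 (95% interval -0.77 to -0.01, adjusted p = 0.81, edgeR). Without Mono+MCTR3 mouse 3 it was -0.60 (adjusted p = 0.24, edgeR), and with only mice of at least 10 such cells it was -0.50 (adjusted p = 0.36, edgeR). With 24 cycling cells added, 18 of them from Mono+MCTR3 mice, it was -0.71 (adjusted p = 0.051, edgeR). The marker lists had named these cells erythroid, with 4 of 7 markers detected. None of their leading genes was on that list, and the name was not used here. Those 24 cells held 26 Lyz2 UMIs in all, or 0.0981 per S100a8 UMI, within the range of the neutrophils, so adding them mostly to 1 group lowers that group's Lyz2 by construction.

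Ctsz was 613, 531, 548 and 578 CPM in the Mono mice and 658, 785, 669 and 898 CPM in the Mono+MCTR3 mice. These ranges did not overlap, which was true of 1 of the 8 members and of 117 of the 2924 genes (4%). The change was 0.35 ± 0.15 (0.03 to 0.67, adjusted p = 0.79, edgeR).

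Ctsl was 99.4, 147, 119 and 168 CPM in the Mono mice and 174, 534, 99.1 and 97.6 CPM in the Mono+MCTR3 mice, so that mouse 2 alone lay far above the rest. The change of 1.04 ± 0.44 (adjusted p = 0.79, edgeR) became -0.014 without that mouse. The other members gave 0.44 ± 0.26 for Ctsd, -0.31 ± 0.23 for Ctsb, -0.28 ± 0.18 for Ctss, -0.23 ± 0.16 for Ctsc and -0.09 ± 0.15 for Ctsh. None of these passed the test, and the intervals all held 0 (for Ctsb -0.82 to 0.20, for Ctsd -0.12 to 1.00). The median over the 8 members was -0.16, with 5 of 8 negative, beside a median of 0.00 and 50.6% negative over all genes tested in this class.

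The classes inside the mononuclear phagocytes were not equally represented in the groups. Macrophage-like cells made up 4.55 to 24.2% of them in Mono mice and 25.0, 28.6, 37.5 and 0% in Mono+MCTR3 mice 1 to 4. The part of this share in the changes of the members was not tested. Nonclassical monocyte-like cells made up 11.4 to 27.3% in Mono mice and 0 to 16.7% in Mono+MCTR3 mice. Of the 9 nonclassical monocyte markers tested, 8 had a negative change (median -0.91, none passing the test). Lyz2 with nonclassical monocyte-like cells left out gave -0.49 (adjusted p = 0.93, edgeR). In classical monocyte-like cells alone, with all 8 mice and chosen after seeing the data, Lyz2 gave -0.40, Ctss -0.41, Ctsc -0.32, Ctsb -0.26, Ctsz 0.26, Ctsd 0.31 and Ctsl 0.097, so that Ctsl was far from its 1.04 over all mononuclear phagocytes. No member passed the test in either setting.

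Within single classes few mice had enough cells for a test. Classical monocyte-like cells, the only such class with at least 3 mice per group, had 48154, 56149, 47181 and 45291 CPM of Lyz2 in the Mono mice and 40050, 39651 and 47963 CPM in Mono+MCTR3 mice 1, 2 and 3, which overlapped through mouse 3. The change was -0.26 ± 0.08 (-0.43 to -0.08, unadjusted p = 0.0081, adjusted p = 0.93, edgeR, n = 4 and 3), and 0 of 2178 genes (0%) passed the test, with 109 at an unadjusted p under 0.05. Ctss gave -0.38 ± 0.14 there (adjusted p = 0.94).

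Macrophage-like cells of Mono mice 2, 3 and 4 had 31809, 30065 and 33489 CPM of Lyz2, and those of Mono+MCTR3 mice 1 and 2 had 9130 and 14149 CPM. In dendritic cell-like cells the values were 12465, 11578 and 7263 CPM against 2149 and 1117 CPM. With 2 Mono+MCTR3 mice in either class the difference was not tested. The paralog Lyz1 in macrophage-like cells was between 504 and 4015 CPM in these Mono mice and at 28.2 and 16.5 CPM in these Mono+MCTR3 mice. Mono+MCTR3 mouse 3, with 3 macrophage-like cells too few to be shown, had the highest Lyz1 of all 8 mice over its mononuclear phagocytes, at 1412 CPM (57 UMIs, of which 6 were in its classical monocyte-like cells). Macrophage-like Ctsl was at 415, 307 and 480 CPM in the Mono mice and 817 and 2090 CPM in the Mono+MCTR3 mice.

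In neutrophils 2 of 5370 genes (0.0372%) passed the test, and neither was a member. Alas2, which encodes the first enzyme of haem synthesis in red cell precursors, was higher in Mono+MCTR3 mice (4.14 ± 0.55, adjusted p = 0.022, edgeR). The 7 erythroid markers summed to 5.96 to 1025 CPM in the Mono mice and 5224 to 11169 CPM in the Mono+MCTR3 mice. Only 8 cells, 7 of them from Mono+MCTR3 mice, held at least 100 haemoglobin UMIs, and without them 0 of 5375 genes passed. No member passed, with or without these cells.

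Changes of the members in neutrophils were 0.08 ± 0.20 for Lyz2 (-0.36 to 0.51), 0.00 ± 0.20 for Ctsb, 0.05 ± 0.25 for Ctsc, -0.25 ± 0.25 for Ctsd, 0.07 ± 0.17 for Ctsh, -0.14 ± 0.25 for Ctsl, -0.38 ± 0.21 for Ctss and -0.42 ± 0.31 for Ctsz (-1.10 to 0.26). The groups overlapped for all 8 members tested, and 2.18% of all genes did not overlap. In the single neutrophil clusters no member passed either, where 2 of 2614 genes (0.0765%), both globin genes, passed in the mature cluster and 0% in each of the other 5 clusters tested (21 to 128 genes at an unadjusted p under 0.05).

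In B cell-like cells 0 of 3929 genes (0%) passed the test (188 at an unadjusted p under 0.05, 2 with edgeR's likelihood ratio test and 0 with DESeq2). Ctsd was 80.8, 128, 56.2 and 95.6 CPM in the Mono mice and 54.4, 52.1, 70.1 and 43.5 CPM in the Mono+MCTR3 mice, which overlapped. Its change was -0.68 ± 0.22 (-1.14 to -0.23, unadjusted p = 0.0050, adjusted p = 0.94, edgeR). The other members ranged from -0.28 for Ctsb to 0.08 for Ctsh, none of the 7 tested had groups that did not overlap, and of all genes 3.26% had such groups.

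**Figure D5:**
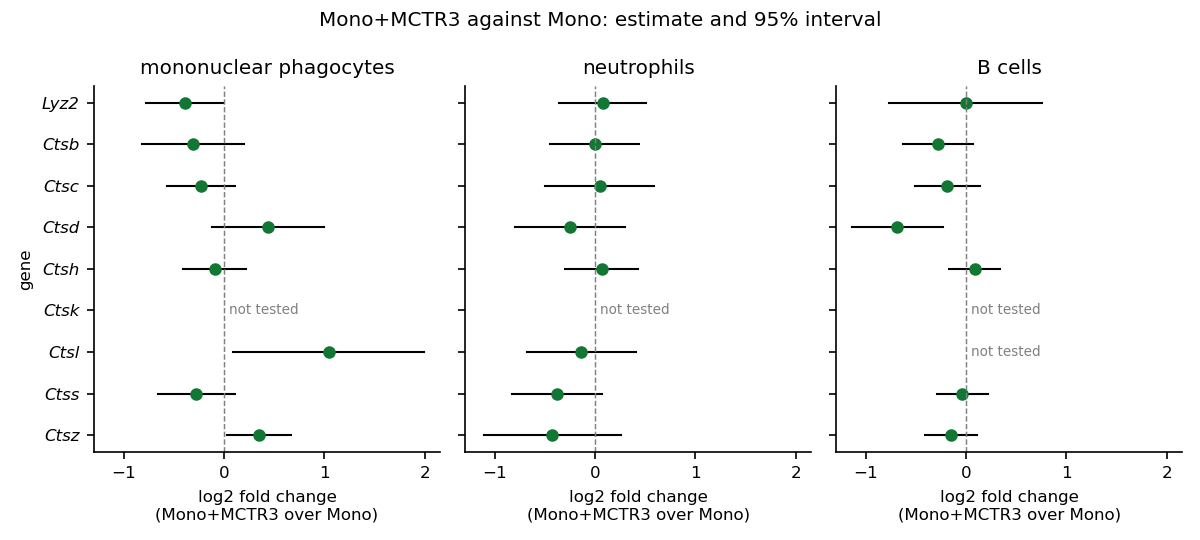
Log2 fold change of Mono+MCTR3 over Mono (x axis) with its 95% interval for each gene (y axis) in mononuclear phagocytes, neutrophils and B cells, from edgeR's quasi-likelihood test over 4 mice per group. Ctsk was not tested in any class, and Ctsl was not tested in B cells. None of the genes tested passed the adjusted test. The intervals of Lyz2 (-0.77 to -0.01), Ctsz and Ctsl in mononuclear phagocytes and of Ctsd in B cells (-1.14 to -0.23) left out 0 before adjustment.

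The difference of the change between mononuclear phagocytes and neutrophils was tested for each member with an exact permutation test over the 8 mice, 2-sided, with a smallest possible p of 0.029. The lowest p was 0.086, for Ctsb (difference -0.24, adjusted p = 0.57 over the 9 members). Lyz2 differed by -0.39 (p = 0.31), Ctsz by 0.78 (p = 0.23) and Ctsd by 0.68 (p = 0.26, each by the exact permutation test). No member was shown to change differently in the 2 classes.

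Other genes of the lysosome were counted from lists. In mononuclear phagocytes no gene of any list passed the test in either direction. Of the lysosomal hydrolases and their activators 14 were tested, of which 12 had a negative change (median -0.19), with Psap, the precursor of the saposins, at 3007 ± 279 CPM (-0.11 ± 0.12) and the cholesterol carrier Npc2 at 1499 ± 190 CPM (-0.20 ± 0.15). Of 13 lysosomal membrane genes 11 were negative (median -0.15), among them Lamp1 (-0.15 ± 0.13) and Laptm5 (-0.13 ± 0.14). The 14 genes of the proton pump that acidifies lysosomes were split, 6 negative and 8 positive (median 0.01), as were all genes tested in this class.

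Cystatin C (Cst3), a secreted cathepsin inhibitor, was at 4485 ± 1011 CPM in mononuclear phagocytes (-0.12 ± 0.20) and stefin B (Cstb), a cytosolic one, at 613 ± 344 CPM (0.72 ± 0.38, adjusted p = 0.86, edgeR). The 7 genes of MHC class II loading that were tested had a median change of -0.49 (6 negative), beside -0.48 (7 of 8 negative) for the dendritic cell markers, which summed to 4579 to 36081 CPM in the Mono mice and 1090 to 23652 CPM in the Mono+MCTR3 mice. Their part in the MHC class II changes was not tested. Cd74, the invariant chain itself, ranged over mice from 859 to 16554 CPM. Of 5 other lysosomal proteases tested 3 were negative (median -0.04), with Napsa at 925 ± 164 CPM and Ctsa at 332 ± 57.6 CPM. The remaining lists had 1 gene each that could be tested, Lyz1 (-0.72 ± 1.31), Prtn3 (0.25 ± 0.55), which is activated by cathepsin C, and the mannose 6-phosphate receptor M6pr (0.18 ± 0.22).

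In neutrophils and B cell-like cells no gene of these lists passed the test either. Of the lysosomal hydrolases tested, 14 of 19 in neutrophils and 9 of 12 in B cell-like cells had a negative change (medians -0.06 and -0.07). Neutrophils had 10 cathepsin inhibitors that could be tested (6 negative, median -0.05), led by the stefin gene Gm5483 at 1368 ± 302 CPM and Cst3 at 1026 ± 219 CPM. B cell-like cells had all 11 genes of MHC class II loading, 9 of them with a positive change (median 0.08), among them Cd74 at 22310 ± 1295 CPM (-0.06 ± 0.09) and H2-Ab1 at 4381 ± 444 CPM (0.15 ± 0.11).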

How the data were processed

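CD45+ paw cells of 8 mice were studied by single cell RNA sequencing. For each group the authors deposited a table of UMI counts by gene and barcode. It came from Cell Ranger with GRCm38 and joins the mice of that group, which may equalise depth within but not between groups. Barcode endings 1 to 4 mark the mice of a group, and which labelled sample each is was not known. As in the study, a cell was kept if it had no fewer than 250 and no more than 3000 genes, 500 or more UMIs and a mitochondrial share of no more than 5%. They were clustered without the 9 genes in Seurat 5.3.0 (2000 variable genes, 20 components, resolution 0.5), and mononuclear phagocytes were clustered again. Scrublet, run in scanpy 1.11.5, called 52 cells (0.507%) as doublets, which were kept. Haemoglobin genes led the mature neutrophil cluster through 5 cells with at least 100 haemoglobin UMIs. They were not left out when it was named, and the name was kept, with 10 of 10 markers of its list detected.

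Counts were summed per mouse and class and tested with edgeR 4.0.16 (TMM, filterByExpr, quasi-likelihood). As alternatives, edgeR's likelihood ratio test (named in the study's methods) and DESeq2 1.42.0 were run, along with other filters, clusterings and classes, and leaving out each mouse in turn. Tested on simulated counts with a 2-fold change, the fit recovered 58.7% of changed genes in mononuclear phagocytes (2976 genes), 67.4% in neutrophils (5374 genes) and 53.3% in B cells (3788 genes). With a 4-fold change it recovered 98.8%, 100% and 98.8%. The simulation gave every gene the same set spread between mice, and all mice of a group the same mean levels. These shares therefore do not give the recovery in the real mice, whose genes differ in spread.

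Members, lists and tests were chosen with earlier results of these data known. All 9 members were named, with, from each list, genes past the test or else the 2 with the highest level, and the 3 genes most like each member. No pair of mice agreed within sampling noise (chi-square per degree of freedom 6.37 to 21.2). The Poisson bound covers counting error only, and the intervals of changes come from the fit over mice. Of the genes that passed the test in neutrophils, 1 is not reported here.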

Additional observations from a re-analysis of the deposited data

Results flagged for a closer look

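In 6 of 54 sets of 4 mice (9 genes, 3 classes, 2 groups), 1 mouse stood apart from the other 3 by Dixon's test at the 95% level. Chance alone does this in about 1 of 20 sets if values are normally distributed. In mononuclear phagocytes, Ctsc was 817 CPM in Mono+MCTR3 mouse 3, the mouse with 8 such cells, against 640 to 663 CPM in the other 3, and Ctsk was 56.4 CPM in Mono mouse 2 against 0 to 7.03 CPM. In B cell-like cells, Ctsb was 162 CPM in Mono mouse 2 (131 to 135 CPM in the others) and 171 CPM in Mono+MCTR3 mouse 3 (96.9 to 109 CPM in the others). Ctsk in B cell-like cells was 1.87 CPM in Mono mouse 4 and 0.914 CPM in Mono+MCTR3 mouse 2, and 0 in the other mice. Each of these values is 1 UMI. Any count above 0 stands apart in this test when the other mice are at 0, so these sets do not bear on that rate.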

How the results depend on the processing

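Among the limits of the mononuclear phagocytes are 2 Mono+MCTR3 mice with 6 and 8 such cells, and 2-fold changes were recovered in part only in simulated counts. No paired analysis was possible because the labels give no replicate number that mice of both groups share, and the barcode endings 1 to 4 only count the mice within each table. Of 1452 alternative values, 1279 kept their direction and side of the threshold, or stayed within the spread between mice. Settings named below as added were chosen after seeing the data. Keeping unnamed second-level clusters of the mononuclear phagocytes was planned but gave no value, since all of them were named. The 24 cycling cells came from the early neutrophil cluster. Where no value is named as the cause, the cause was not tested.

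Genes called in mononuclear phagocytes, 0 in the report, were 6 with DESeq2, 12 with edgeR's likelihood ratio test, 88 with no filter on low counts, 2 without dendritic cell-like cells, 1 with mice of at least 10 cells (added) and 0 to 4 with 1 mouse left out (4 without Mono mouse 1, 1 without Mono+MCTR3 mouse 1). In neutrophils, 2 in the report, they were 6 with the likelihood ratio test, 30 with no filter, 8 with the members kept in the clustering, and 0 with no upper limit on genes, doublets removed, resolution 1.0, resolution 0.3 or the haemoglobin-rich cells left out (added), and 0 to 6 with 1 mouse left out (0 without Mono+MCTR3 mouse 1 or Mono mouse 2 or 3, 1 without Mono mouse 1, 5 without Mono+MCTR3 mouse 2, 6 without Mono mouse 4). In B cells, 0 in the report, they were 2 with the likelihood ratio test and 23 with no filter. Only 2 members were called in any alternative, both with no filter, Ctsl in mononuclear phagocytes (0.98, adjusted p = 0.012) and Ctsb in the inflammatory neutrophil cluster (0.74, adjusted p = 0.047, edgeR).

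Changes that turned direction with the processing are given with their new values. In neutrophils, Ctsc became -0.053 with library totals, -0.016 with no upper limit on genes, -0.068 at resolution 1.0 and -0.066 at resolution 0.3, Ctsh -0.020 with library totals, and Ctsb 0.011 with 10% mitochondrial UMIs, 0.018 with no upper limit and 0.013 with the members kept. In B cells, Lyz2 became 0.19 with DESeq2, 0.16 with the likelihood ratio test, 0.13 with no upper limit and 0.44 with doublets removed. In single neutrophil clusters with no filter, Lyz2 became 0.030 and Ctsh 0.018 in the stefin-high, Lyz2 0.029 in the Mmp8-high and Ctsz -0.16 in the interferon-response cluster. With library totals, Ctsz became -0.060 in the interferon-response cluster and Ctsh -0.00083 in the immature cluster. The Ctsk difference between mononuclear phagocytes and neutrophils became -0.56 with 1 CPM added (adjusted p = 0.87, exact permutation test).

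Levels moved by more than the SD in the Siglech-high cluster when the members were kept in the clustering (Ctsb 2865, Ctsh 1304, Ctsl 1419, Ctss 1087 and Ctsz 744 CPM) and with doublets removed (Ctsb 94.1 and Ctsz 41.2 CPM in immature neutrophils, Lyz2 421 CPM in mast cells or basophils).

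With 1 mouse left out, changes that turned direction ranged as follows. In mononuclear phagocytes Ctsl ranged from -0.014 to 1.23. In classical monocyte-like cells Ctsl ranged from -0.70 to 0.48. In neutrophils Ctsb ranged from -0.23 to 0.15, Ctsc from -0.027 to 0.27, Ctsd from -0.48 to 0.045, Ctsh from -0.096 to 0.19, Ctsl from -0.31 to 0.056 and Lyz2 from -0.043 to 0.29. In B cells Ctss ranged from -0.093 to 0.026 and Lyz2 from -0.31 to 0.59. In the mature cluster Ctsb ranged from -0.26 to 0.083 and Ctsd from -0.22 to 0.040. In the stefin-high cluster Ctsb ranged from -0.25 to 0.32, Ctsd from -0.15 to 0.077, Ctsh from -0.094 to 0.14, Ctsz from -0.12 to 0.21 and Lyz2 from -0.044 to 0.035. In the inflammatory cluster Ctsb ranged from -0.011 to 1.10, Ctsd from -0.30 to 0.063, Ctsl from -0.11 to 0.34, Ctss from -0.13 to 0.12, Ctsz from -0.29 to 0.098 and Lyz2 from -0.25 to 0.079. In the Mmp8-high cluster Ctsb ranged from -0.11 to 0.30, Ctsd from -0.18 to 0.035, Ctsh from -0.18 to 0.13 and Lyz2 from -0.11 to 0.11. In the immature cluster Ctsh ranged from -0.066 to 0.19, Ctsl from -0.41 to 0.093, Ctsz from -0.019 to 0.16 and Lyz2 from -0.098 to 0.12. In the interferon-response cluster Ctsz ranged from -0.25 to 0.45. The difference between mononuclear phagocytes and neutrophils ranged from -0.10 to 0.054 for Ctsh, from -0.46 to 0.57 for Ctsk, from -0.092 to 0.93 for Ctsl and from -0.059 to 0.32 for Ctss.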
